A study of Homo sapiens with 18 samples.

Results

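The CREB family and its coactivators were followed through RNA-Seq of HEK293 cells, a human embryonic kidney line, stimulated with the β-adrenergic agonist isoproterenol. The set was chosen by gene name and holds 9 of the 34287 genes matched in the count table: the transcription factors CREB1, ATF1 and CREM, the CREB-regulated transcription coactivators CRTC1, CRTC2 and CRTC3, the acetyltransferases CREBBP (CBP) and EP300 (p300), and CITED2, a small protein that binds CBP and p300. All 9 passed the filter on low counts. CREM was also followed transcript by transcript, through 48 annotated transcripts, to look for ICER, the short cAMP-induced repressor that the gene makes from an internal promoter.

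The study compared 6 groups of 3 biological replicates, 18 libraries in all. Wildtype HEK293 cells were set beside Gαs KO cells and cells made to lack both β-arrestins (β-arr1/2 KO), the KO lines being CRISPR-Cas9 derivatives of HEK293. Each was kept basal with vehicle or given 1 μM isoproterenol for 1 h. All cells, the controls included, had been transfected with a plasmid for an HA-tagged receptor 48 h earlier and serum starved overnight, so the receptor was overexpressed in every group. Whether a KO line was 1 clone is not given in the sources used here, so a basal difference of a line and one of its deletion cannot be told apart.

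As background, isoproterenol acts through receptors that couple to Gs, whose Gαs subunit drives cAMP synthesis and protein kinase A (PKA). PKA phosphorylates CREB1, ATF1 and activator forms of CREM in their kinase-inducible domain, and the phosphorylated factors recruit CBP or p300 to promoters with a cAMP response element (CRE). CRTC proteins are held in the cytoplasm by salt-inducible kinases, enter the nucleus when cAMP rises and bind the same factors, while ICER keeps the DNA-binding domain of CREM without the phosphorylation site and blocks these elements. β-arrestins bind the agonist-occupied receptor and uncouple it from Gs.

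The promoters below are shown because CREM starts its transcripts at several places and only some of them are next to the CRE-like letters TGANGTCA. They are RefSeq windows (GRCh38.p14) from 250 bases before to 50 bases after a start, read 5′ to 3′ on the gene's strand, and capitals mark matches to TGANGTCA on either strand, the palindromic CRE TGACGTCA included. The table gave windows for 8 of the 9 genes, and CREM had 7 windows.

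CREM upstream promoter, chr10:35126751-35127050, plus strand: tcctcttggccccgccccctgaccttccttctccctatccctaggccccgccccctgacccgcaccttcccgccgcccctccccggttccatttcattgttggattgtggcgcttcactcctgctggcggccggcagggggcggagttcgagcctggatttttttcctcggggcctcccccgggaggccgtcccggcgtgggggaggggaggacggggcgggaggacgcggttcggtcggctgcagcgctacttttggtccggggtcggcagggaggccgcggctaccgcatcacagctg
CREM ICER promoter, chr10:35194883-35195182, plus strand: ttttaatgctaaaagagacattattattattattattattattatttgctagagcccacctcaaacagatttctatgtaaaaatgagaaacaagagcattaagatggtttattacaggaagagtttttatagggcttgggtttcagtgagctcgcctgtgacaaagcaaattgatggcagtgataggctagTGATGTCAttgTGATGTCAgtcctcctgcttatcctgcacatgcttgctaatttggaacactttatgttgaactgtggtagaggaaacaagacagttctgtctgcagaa
CREM second internal promoter, chr10:35195600-35195899, plus strand: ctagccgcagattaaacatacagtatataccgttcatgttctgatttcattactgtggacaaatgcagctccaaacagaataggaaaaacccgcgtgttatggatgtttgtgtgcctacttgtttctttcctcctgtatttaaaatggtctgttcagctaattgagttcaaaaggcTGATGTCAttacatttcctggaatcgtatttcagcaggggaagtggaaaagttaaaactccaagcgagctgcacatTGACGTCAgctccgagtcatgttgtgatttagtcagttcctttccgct
CITED2 promoter, chr6:139374599-139374898, minus strand: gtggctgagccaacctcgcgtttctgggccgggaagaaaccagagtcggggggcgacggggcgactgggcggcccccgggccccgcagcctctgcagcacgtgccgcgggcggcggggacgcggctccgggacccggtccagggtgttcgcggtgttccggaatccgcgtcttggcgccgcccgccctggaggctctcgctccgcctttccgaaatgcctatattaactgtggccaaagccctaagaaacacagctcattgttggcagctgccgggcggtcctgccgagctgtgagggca

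The ICER promoter held 2 matches, both spelled TGATGTCA, beginning 59 and 48 bases before the start. The second internal promoter held a TGATGTCA 74 bases before its start and the full TGACGTCA 2 bases after it. Of 35116 promoter windows in the table, 7.72% held TGANGTCA, 0.43% held it at least 2 times and 1.85% held TGACGTCA. A further CREM window, chr10:35167314-35167613, held 1 match (TGACATCA), and another overlapped the second internal promoter. The 3 upstream CREM windows and the 3 CITED2 windows held none, nor did the windows of CREB1, ATF1, CRTC1, CRTC3, CREBBP and EP300. The shorter run TGACG, with which the full CRE begins, was in 24.6% of all windows. An upstream CREM window not printed here (chr10:35126977-35127276) held it 2 times, a CREBBP window 2 times and the CRTC3 window 1 time. The ICER promoter held it 0 times, so the contrast of these promoters depends on the letters sought. A match is a run of letters and not a shown binding site, and its absence says only that these letters are not in these windows.

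Transcripts from the ICER promoter begin their coding sequence with a stretch at chr10:35195190-35195214 (GRCh38) that no annotated CREM transcript from another start site holds. It is shown because it sets ICER apart from the rest of CREM, with the start codon in capitals.
ICER coding start: ATGgctgtaactggagatgacacag

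Library totals ran from 17908597 to 25019834 estimated counts, and values below are normalized counts per library (counts scaled by edgeR's TMM factors) unless a sentence says otherwise. Wildtype basal replicate 1 stood apart: the mean GC content of its counted transcripts was 52.5%, against 49.1 to 50.1% in the other 17 libraries, and for all 9 members it was the lowest or highest of the 3 wildtype basal libraries. All groups share 1 estimate of spread, so the wildtype responses of the members are also given without it. GNAS, which encodes Gαs, had 1173 to 1365 counts in Gαs KO cells against 20418 to 33547 elsewhere. ARRB2 had 291 to 441 counts in β-arr1/2 KO cells and 1371 to 2522 in the others, whereas ARRB1 overlapped between the lines. Of 9 HEK293 markers, 7 had at least 123 counts in every library, VIM and KRT8 the most (at least 11839 and 10772), whereas NEFM (14.5 to 47.2) and PAX2 (17.2 to 68.2) were low throughout. EYA1 averaged 133 counts at β-arr1/2 KO basal and 478 at wildtype basal. Of the blood markers, CD3E and HBB had no counts, PTPRC had at most 4.34, CD14 4.69 to 21.9 and HBA1 50.9 to 155. Among markers of fibroblasts, blood and liver, COL1A1 was the highest, with 352 to 914 counts. COL3A1 had 291 to 317 counts in Gαs KO libraries and 15.4 to 82.5 in the others.

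Isoproterenol raised CITED2 in wildtype and β-arr1/2 KO cells and CREM in β-arr1/2 KO cells, and no member was called in Gαs KO cells. In bulk samples, fewer cells responding and less RNA per cell cannot be told apart. The question here is which parts of the CREB machinery change at the mRNA level within 1 h of receptor stimulation, and which G protein or arrestin that needs. Of the 9 genes, 1 rose and 0 fell in wildtype cells, where 0.464% of the 15530 genes tested were called (0.412% higher). In β-arr1/2 KO cells 2 rose and 0 fell, against 1.13% of all genes (0.953% higher). Without wildtype basal replicate 1 the genes called in that line went from 175 to 1849, and 1 member, EP300, was called lower there. In Gαs KO cells edgeR's quasi-likelihood test called 0 of the 9 and 0 of all genes (0.0%), with 0 of the 9 at an unadjusted p under 0.05 and 0 called by DESeq2, which called 9 genes in all. The median log2 fold change of the 9 was -0.17 in wildtype, -0.09 in β-arr1/2 KO and 0.01 in Gαs KO cells, beside -0.002, -0.008 and -0.001 over all genes. Single values of 3 against 3 libraries were also compared with two-sided exact permutation tests, which cannot go below p = 0.1. A fold over basal below is each isoproterenol library over the mean of the basal libraries. Its SD therefore covers the isoproterenol libraries only and leaves out the spread of the basal ones.

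**Figure D1:**
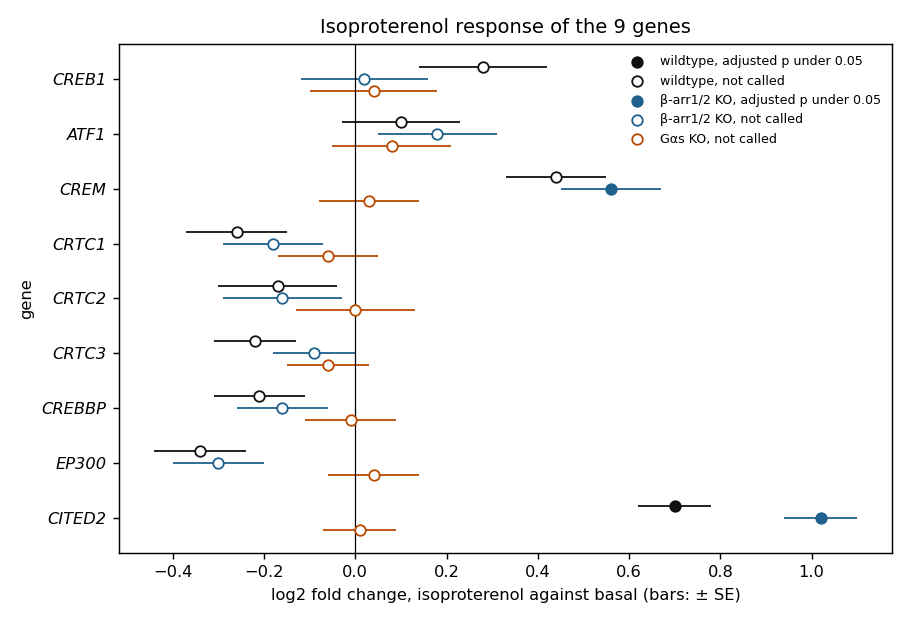
Isoproterenol responses of the 9 genes, as log2 fold change (x axis) per gene (y axis) in the 3 cell lines, with bars for the standard error. Filled points passed an adjusted p of 0.05. CITED2 lies at 0.70 in wildtype and 1.02 in β-arr1/2 KO cells, CREM at 0.44 and 0.56, and every Gαs KO point lies within 0.08 of 0.

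CITED2 (chr6:139371807-139374620, minus strand, GRCh38) competes with hypoxia-inducible factor for the CH1 domain of CBP and p300. In wildtype cells the basal libraries had 1758, 1496 and 1639 counts, and the isoproterenol libraries had 2785, 2500 and 2659. Among β-arr1/2 KO libraries counts were 1377, 1460 and 1494 at basal and 2832, 2840 and 3109 with isoproterenol. In Gαs KO cells they were 2193, 2255 and 2425 at basal and 2277, 2367 and 2275 with isoproterenol. The groups did not overlap in the first 2 lines and overlapped fully in Gαs KO cells.

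The fold over basal of CITED2 was 1.62 ± 0.09 (SD, n = 3, exact permutation p = 0.1) in wildtype cells, 2.03 ± 0.11 (SD, n = 3, exact permutation p = 0.1) in β-arr1/2 KO cells and 1.01 ± 0.02 (SD, n = 3, exact permutation p = 0.8) in Gαs KO cells. The log2 fold change was 0.70 ± 0.08 (SE, adjusted p = 6.8e-05, edgeR) in wildtype and 1.02 ± 0.08 (SE, adjusted p = 3.3e-07) in β-arr1/2 KO cells. Gαs KO cells differed from wildtype in this response by -0.69 ± 0.11 on the log2 scale (SE, adjusted p = 0.0069), a difference called for 0.161% of genes and, among the 9, for CITED2 alone. The β-arr1/2 KO response exceeded the wildtype one by 0.32 ± 0.11 (SE) with an unadjusted p of 0.0083 and an adjusted p of 0.54, which is not called, and 0 of the 9 genes passed in this comparison (1 at an unadjusted p under 0.05, 0 by DESeq2, 0.167% of all genes called). Without wildtype basal replicate 1 the wildtype log2 fold change was 0.76 (adjusted p = 9.7e-07), and the excess in β-arr1/2 KO cells was 0.26 (adjusted p = 0.061). Fitted on the wildtype libraries alone, the wildtype change of 0.70 was not called (adjusted p = 0.37), nor was the difference of Gαs KO cells when only those 2 lines were fitted (adjusted p = 0.085).

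**Figure D2:**
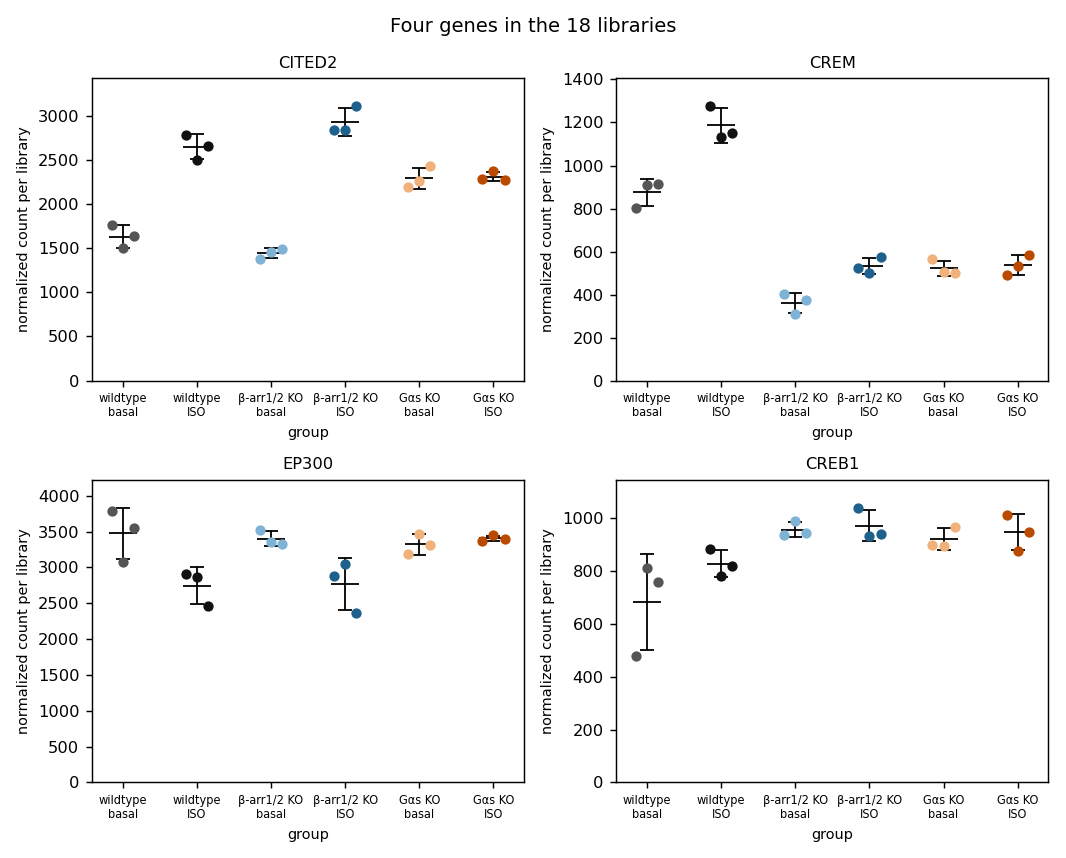
Normalized counts (y axis) of CITED2, CREM, EP300 and CREB1 in each of the 18 libraries by group (x axis). Points are libraries, and lines give the mean ± SD of 3. CITED2 with isoproterenol lies above basal in wildtype and β-arr1/2 KO cells and level with it in Gαs KO cells. CREM is lower in both KO lines than in wildtype cells.

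CREM (chr10:35126791-35212958, plus strand, GRCh38) gives activators as well as repressors of the same elements. Its wildtype basal libraries had 804, 910 and 912 counts, and the isoproterenol libraries had 1277, 1133 and 1149. Its β-arr1/2 KO libraries had 401, 308 and 373 counts at basal and 522, 499 and 574 with isoproterenol. Its Gαs KO libraries had 564, 507 and 499 counts at basal and 490, 533 and 584 with isoproterenol. All isoproterenol libraries lay above all basal ones in wildtype and β-arr1/2 KO cells, and the groups overlapped in Gαs KO cells.

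The fold over basal of CREM was 1.36 ± 0.09 (SD, n = 3, exact permutation p = 0.1) in wildtype and 1.47 ± 0.11 (SD, n = 3, exact permutation p = 0.1) in β-arr1/2 KO cells, against 1.02 ± 0.09 (SD, n = 3, exact permutation p = 0.7) in Gαs KO cells. The log2 fold change was 0.56 ± 0.11 (SE, adjusted p = 0.012, edgeR) in β-arr1/2 KO cells. In wildtype cells it was 0.44 ± 0.11 (SE) with an adjusted p of 0.11 by edgeR and 0.0096 by DESeq2. The 2 responses differed by 0.12 ± 0.15 (SE, adjusted p = 1), so the call in one line and not in the other does not show a difference between them. The Gαs KO response was lower than the wildtype one by 0.40 on the log2 scale, at -0.40 ± 0.15 (SE, unadjusted p = 0.016, adjusted p = 0.89), which is not called. The β-arr1/2 KO call of CREM was lost without basal replicate 2 (0.45, adjusted p = 0.09), basal replicate 3 (0.58, 0.054), isoproterenol replicate 1 (0.57, 0.051) or isoproterenol replicate 3 (0.50, 0.1), with only protein-coding transcripts counted (0.59, 0.11) and with length-scaled counts (0.43, 0.09). It was 0.0014 without wildtype basal replicate 1, where the wildtype change of 0.38 had an adjusted p of 0.092.

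Within CREM, the ICER start site gave the largest change of the 4 tested sites in wildtype cells, which was not called, while the upstream promoter stayed close to basal. Starts within 500 bases of each other were joined, which gave 8 groups of start sites. The upstream group (chr10:35126791-35127477) holds 21 transcripts, of which 9 code for the phosphorylation site of the kinase-inducible domain (exon chr10:35178889-35178986). The ICER group (chr10:35195127-35195147) holds 4 coding transcripts, CREM-207, CREM-228, CREM-236 and CREM-237, and a second internal group (chr10:35195865-35196399) holds 6, of which 5 are coding. None of these 10 has the phosphorylation site, and together they are called the ICER class here from their annotation. The class is set by start site and does not hold every short form without the phosphorylation site. The upstream transcript CREM-218 has the same coding start, coding end and 285 coding bases as CREM-203 of the class, but lies outside it. CREM-218 had 0, 0 and 106 counts at wildtype basal, 106, 69.6 and 49.7 at β-arr1/2 KO basal and 83.1, 93.7 and 115 at Gαs KO basal. Salmon divides read pairs among overlapping transcripts, and the error of that division is in no p-value below.

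In wildtype cells the ICER start site had 202, 350 and 351 counts at basal and 678, 715 and 595 with isoproterenol. The fold was 2.20 ± 0.20 (SD, n = 3, exact permutation p = 0.1). This SD leaves out the basal spread, which was 301 ± 85.9 counts (mean ± SD, n = 3). In β-arr1/2 KO cells the ICER start site had 53.5, 50.7 and 75.1 counts at basal and 186, 74.9 and 226 with isoproterenol. The fold there was 2.72 ± 1.31 (SD, n = 3, exact permutation p = 0.2), and isoproterenol replicate 2 lay within the basal range. In Gαs KO cells counts were 99.0, 94.6 and 93.8 at basal and 52.8, 131 and 110 with isoproterenol, a fold of 1.02 ± 0.42 (SD, n = 3, exact permutation p = 1.0). The lowest wildtype isoproterenol library thus had more ICER-site counts than any basal or KO library.

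By edgeR's test over 31123 start sites, the log2 fold change of the ICER site was 1.15 ± 0.37 in wildtype (SE, unadjusted p = 0.008, adjusted p = 0.43), 1.44 ± 0.38 in β-arr1/2 KO (unadjusted p = 0.0021, adjusted p = 0.21) and 0.03 ± 0.38 in Gαs KO cells (adjusted p = 1). Its response in Gαs KO minus wildtype cells was -1.11 ± 0.53 (SE, adjusted p = 0.99), and that in β-arr1/2 KO minus wildtype cells 0.29 ± 0.53 (SE, adjusted p = 1), neither called. The wildtype value was 0.91 (adjusted p = 0.5) without wildtype basal replicate 1. None of the 4 CREM start sites with enough counts to test was called in a response by edgeR, against 0.238%, 0.482% and 0.00321% of all sites in wildtype, β-arr1/2 KO and Gαs KO cells. At an unadjusted p under 0.05 there were 1, 2 and 0 of them, and DESeq2 called 0, 2 and 0. The ICER site was called in β-arr1/2 KO cells by DESeq2 (1.45, adjusted p = 0.016), without wildtype basal replicate 1 (1.44, adjusted p = 0.048) and without β-arr1/2 KO isoproterenol replicate 2 (1.78, adjusted p = 0.042). The upstream promoter had log2 fold changes of 0.14 ± 0.22, 0.05 ± 0.22 and 0.00 ± 0.22 (SE) in wildtype, β-arr1/2 KO and Gαs KO cells.

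The second start site of the gene (chr10:35137836), whose 4 transcripts all code for the phosphorylation site, had 160, 123 and 113 counts at wildtype basal and 79.3, 72.9 and 68.9 with isoproterenol. These groups did not overlap, and the log2 fold change of -0.82 ± 0.48 (SE, adjusted p = 0.65) was not called.

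The second internal site, next to the full CRE, had 94.8, 109 and 35.8 counts at wildtype basal and 65.2, 56.7 and 51.2 with isoproterenol. Among β-arr1/2 KO libraries it had 9.44, 29.3 and 2.11 counts at basal and 58.6, 61.7 and 71.5 with isoproterenol, with a log2 fold change of 2.20 ± 0.63 (SE, unadjusted p = 0.0034, adjusted p = 0.28). Without β-arr1/2 KO basal replicate 2 this change was 3.44 and was called (adjusted p = 0.03). Gαs KO cells had 28.9, 24.4 and 32.7 counts there at basal and 16.6, 10.8 and 20.5 with isoproterenol, so the stimulated libraries lay below the basal ones (log2 fold change -0.84 ± 0.62, SE, adjusted p = 1).

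**Figure D3:**
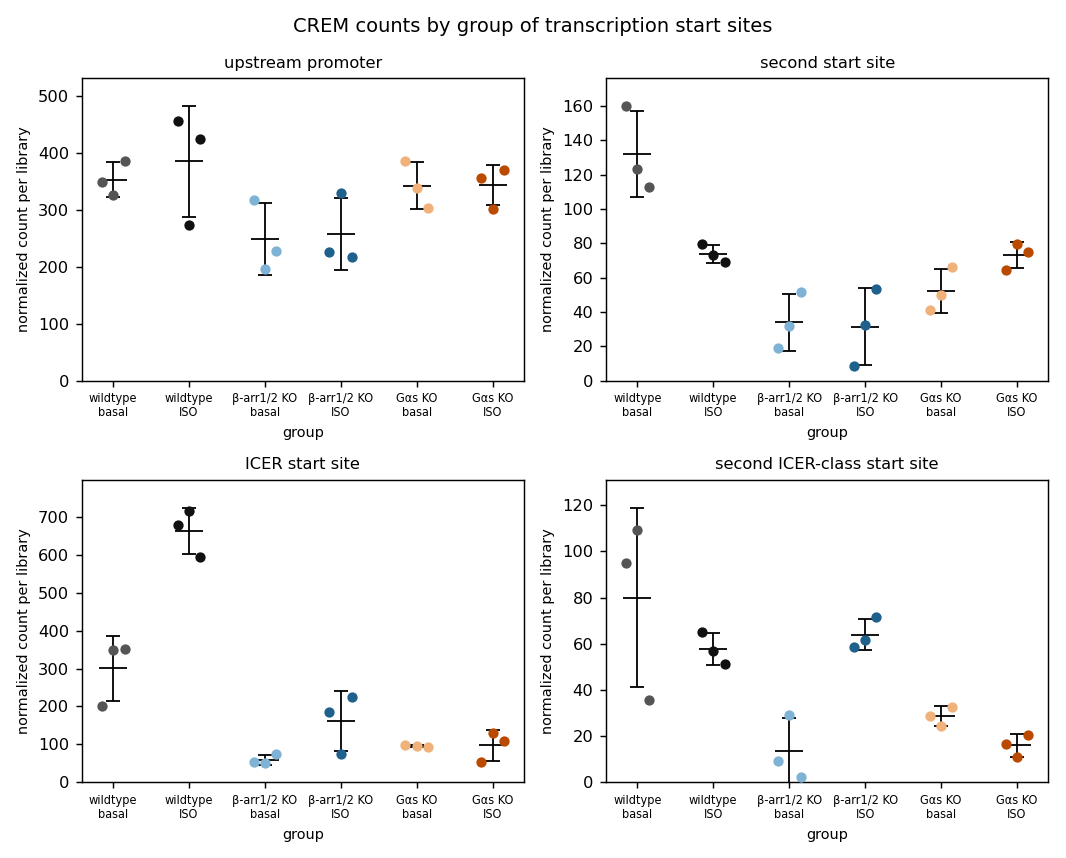
Normalized counts (y axis) at the 4 CREM start-site groups that could be tested, per library and group (x axis), with the mean ± SD of 3 libraries. The ICER start site has 595 to 715 counts in wildtype isoproterenol libraries and at most 351 in any other library, while the upstream promoter shows overlapping basal and isoproterenol libraries in each line.

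The share of CREM counts on the ICER class was higher with isoproterenol in both lines that have Gαs. The groups did not overlap, in β-arr1/2 KO cells only by 27.3 against 26.1%. In wildtype cells it was 36.9, 50.6 and 42.5% at basal and 58.2, 68.2 and 56.3% with isoproterenol, means of 43.3% ± 6.9 and 60.9% ± 6.4 (SD, n = 3, exact permutation p = 0.1). In β-arr1/2 KO cells it was 15.8, 26.1 and 20.8% at basal and 46.9, 27.3 and 51.9% with isoproterenol, means of 20.9% ± 5.1 and 42.0% ± 13.0 (SD, n = 3, exact permutation p = 0.1). In Gαs KO cells it was 22.8, 23.4 and 25.5% at basal and 14.2, 26.5 and 22.5% with isoproterenol, means of 23.9% ± 1.4 and 21.1% ± 6.3 (SD, n = 3, exact permutation p = 0.7). The p of 0.1 is the smallest that 3 against 3 allows. For the ICER start site alone the shares overlapped in β-arr1/2 KO cells, with means of 16.7% ± 3.3 and 30.1% ± 13.2. They did not overlap in wildtype cells (34.1% ± 7.7 and 56.0% ± 6.2, SD, n = 3). The second internal site had 0.7 to 9.5% at β-arr1/2 KO basal and 11.2 to 12.5% with isoproterenol. In wildtype cells the mean share of that site went down from 9.2 to 4.9%. CREM counts outside the class were 494 ± 39.1 before and 466 ± 92.7 after isoproterenol in wildtype cells, 287 ± 55.4 and 305 ± 49.8 in β-arr1/2 KO cells, and 399 ± 33.0 and 422 ± 30.6 in Gαs KO cells (mean ± SD, n = 3).

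**Figure D4:**
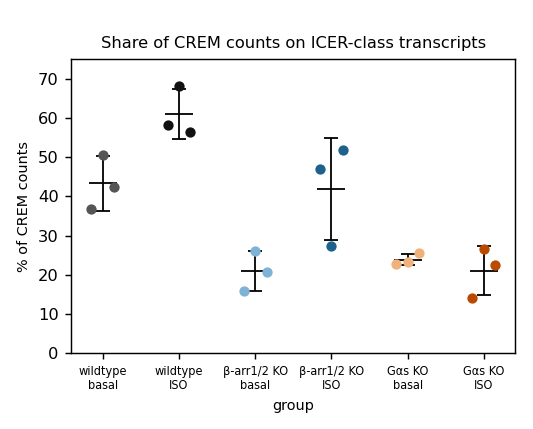
Share of CREM counts assigned to ICER-class transcripts (y axis, percent) per library and group (x axis), with the mean ± SD of 3 libraries. Wildtype means are 43.3% at basal and 60.9% with isoproterenol, β-arr1/2 KO means 20.9% and 42.0%, and Gαs KO means 23.9% and 21.1%.

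Of the 48, 24 could be tested and 17 had at least 10 counts in all libraries of a group. CREM-207, an ICER transcript with 324 coding bases, had 108, 206 and 265 counts at wildtype basal and 413, 464 and 346 with isoproterenol. Among β-arr1/2 KO libraries it had 53.5, 48.3 and 38.1 at basal and 106, 68.8 and 157 with isoproterenol, and in Gαs KO cells 64.4, 54.3 and 59.5 and then 49.9, 89.1 and 70.5. CREM-237, with 327 coding bases, had 2.08, 10.0 and 13.4 counts at wildtype basal and 32.4 to 78.0 with isoproterenol. In the 3 β-arr1/2 KO basal libraries CREM-237 had 0 counts, and with isoproterenol it had 17.3, 5.06 and 25.6. CREM-228, with 360 coding bases, had 92.7, 133 and 64.9 counts at wildtype basal and 215, 172 and 216 with isoproterenol. The stimulated wildtype libraries thus lay above the basal ones for all 3 of these transcripts, and how many of all transcripts separate so is not given here. CREM-228 overlapped between basal and isoproterenol in both KO lines.

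Other transcripts moved without overlap in a single line or in opposite directions, and none of these values was called. CREM-229, a coding transcript of the upstream promoter, had 39.6, 13.4 and 24.6 counts at wildtype basal and 10.9, 9.12 and 9.40 with isoproterenol (log2 fold change -1.32 ± 0.68, SE, adjusted p = 0.71). CREM-240, a noncoding transcript of that promoter, had 13.6, 0 and 0 counts at β-arr1/2 KO basal and 29.8, 33.4 and 34.1 with isoproterenol (2.84 ± 2.18, SE, adjusted p = 0.99). CREM-203, from the second internal site, had 0, 17.4 and 0 and then 46.1, 43.5 and 65.1 in these cells, but went from a mean of 14.7 ± 0.596 (SD, n = 3) to 9.79, 0 and 0 in Gαs KO cells. CREM-219, a noncoding upstream transcript, had 34.5, 35.6 and 40.2 counts and then 30.3, 25.4 and 23.9 in Gαs KO cells.

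No CREM transcript was called in a response by edgeR, where 0.0902% of 61001 transcripts were called in wildtype, 0.193% in β-arr1/2 KO and 0.00328% in Gαs KO cells. At an unadjusted p under 0.05 there were 2, 2 and 0 CREM transcripts, and DESeq2 called 0, 2 and 0. The 2 that DESeq2 called in β-arr1/2 KO cells were CREM-237 (adjusted p = 0.0012) and CREM-207 (adjusted p = 0.035). CREM-237 was also called there by edgeR without wildtype basal replicate 1 (adjusted p = 0.03). CREM-211, an upstream transcript that codes for the phosphorylation site, had values of 0.28 ± 0.48, -0.20 ± 0.48 and 0.22 ± 0.48 on the log2 scale (SE) in wildtype, β-arr1/2 KO and Gαs KO cells. Over the 17 transcripts the median log2 fold change was 0.14 in wildtype, 0.10 in β-arr1/2 KO and -0.17 in Gαs KO cells.

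CREB1 (chr2:207529737-207603431, plus strand, GRCh38), the founding CRE-binding activator, did not pass the test in any response. Its wildtype basal libraries had 477, 813 and 760 counts and its isoproterenol libraries 882, 780 and 818. β-arr1/2 KO cells had 936, 991 and 943 at basal and 1040, 933 and 942 with isoproterenol, and Gαs KO cells had 899, 893 and 967 and then 1013, 877 and 949. The wildtype log2 fold change of 0.28 ± 0.14 (SE, adjusted p = 0.49) was 0.07 without wildtype basal replicate 1, the low library. METTL21A overlaps CREB1 on the opposite strand, and whether counting used strand is not given in the sources used here.

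ATF1 (chr12:50763710-50821122, plus strand, GRCh38), a close relative that dimerizes with CREB1, had 835, 1318 and 1127 counts at wildtype basal and 1301, 1099 and 1123 with isoproterenol. It had 764, 829 and 817 at basal and 972, 794 and 964 with isoproterenol in β-arr1/2 KO cells, and 918, 1010 and 890 and then 1028, 956 and 994 in Gαs KO cells. Its log2 fold changes of 0.10, 0.18 and 0.08 (SE 0.13 each) were not called, and basal and isoproterenol libraries overlapped in all 3 lines. The wildtype value of ATF1 turned its sign to -0.06 without wildtype basal replicate 1 and to -0.29 with GC and length offsets.

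The CRTC genes, the coactivators that salt-inducible kinases hold in check, gave small negative values in wildtype and β-arr1/2 KO cells, none of them called. CRTC1 (chr19:18683677-18782333, plus strand) had 1196, 799 and 987 counts at wildtype basal and 781, 882 and 827 with isoproterenol, and 939, 947 and 963 and then 784, 868 and 871 in β-arr1/2 KO cells. CRTC2 (chr1:153947669-153958625, minus strand) had 900, 890 and 944 at β-arr1/2 KO basal and 877, 733 and 839 with isoproterenol. CRTC3 (chr15:90529925-90645345, plus strand) had 1481, 1435 and 1453 and then 1434, 1359 and 1320 there. In β-arr1/2 KO cells the log2 fold changes were -0.18 ± 0.11 for CRTC1, -0.16 ± 0.13 for CRTC2 and -0.09 ± 0.09 for CRTC3 (SE, adjusted p = 0.74, 0.81 and 0.84, edgeR). All isoproterenol libraries of the 3 genes lay below all basal ones there, for CRTC3 only by 1434 against 1435 counts. How many of all genes separate so is not given here, so this is not read as a result about the 3 genes. In wildtype cells the changes were -0.26, -0.17 and -0.22, and without wildtype basal replicate 1 they were -0.11, 0.07 and -0.08, so that of CRTC2 turned its sign. With GC and length offsets the β-arr1/2 KO value of CRTC1 turned to 0.06. In Gαs KO cells they were -0.06, 0.00 and -0.06.

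EP300 (chr22:41091786-41180079, plus strand, GRCh38), one of the acetyltransferases that phosphorylated CREB recruits, had 3790, 3083 and 3555 counts at wildtype basal and 2915, 2873 and 2456 with isoproterenol. Among β-arr1/2 KO libraries it had 3523, 3350 and 3332 at basal and 2884, 3055 and 2364 with isoproterenol, and in Gαs KO cells 3186, 3466 and 3310 and then 3375, 3449 and 3391. By normalized counts the isoproterenol libraries lay below the basal ones without overlap in both lines that have Gαs. As TPM, a read share per transcript length, they overlapped in both. Wildtype cells had 32.9 to 39.7 TPM at basal and 25.1 to 33.1 with isoproterenol, and β-arr1/2 KO cells 36.3 to 42.2 and 25.8 to 36.9. The log2 fold changes were -0.34 ± 0.10 in wildtype (SE, unadjusted p = 0.0032, adjusted p = 0.23) and -0.30 ± 0.10 in β-arr1/2 KO cells (SE, unadjusted p = 0.0077, adjusted p = 0.27), neither called, and 0.04 ± 0.10 in Gαs KO cells. The Gαs KO response of EP300 minus the wildtype one was 0.38 ± 0.14 (SE, adjusted p = 0.89), which is not called. Without wildtype basal replicate 1 the β-arr1/2 KO value of -0.30 passed (adjusted p = 0.023) and the wildtype value of -0.27 did not (adjusted p = 0.18). The mean GC content of counted transcripts was 49.3 to 49.4% in the β-arr1/2 KO isoproterenol libraries and 49.8 to 50.1% in the basal ones, and with GC and length offsets the EP300 changes were -0.26 (adjusted p = 0.058) in wildtype and -0.21 (adjusted p = 0.12) in β-arr1/2 KO cells.

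CREBBP (chr16:3725054-3880726, minus strand, GRCh38), the partner acetyltransferase, had 7836, 5857 and 6166 counts at wildtype basal and 6023, 5827 and 5304 with isoproterenol. In β-arr1/2 KO cells it had 8710, 8382 and 8070 at basal and 7616, 8194 and 6783 with isoproterenol, and in Gαs KO cells 6316, 6507 and 6532 and then 6243, 6582 and 6356. The groups overlapped in each line, and the log2 fold changes of -0.21, -0.16 and -0.01 (SE 0.10 each) were not called. The wildtype value of CREBBP was -0.07 without wildtype basal replicate 1.

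At basal the KO lines differed from wildtype cells by the most in CREM. Of the 9 genes, 2 were higher and 2 lower in β-arr1/2 KO cells, where 33.5% of all genes were called (15.7% higher, 17.9% lower), and 2 were higher and 1 lower in Gαs KO cells, where 31.3% were called (14.2% higher, 17.1% lower). These counts are near the shares over all genes. CREM was lower by 1.28 in β-arr1/2 KO cells, at -1.28 ± 0.11 on the log2 scale (SE, adjusted p = 2.9e-07), and at -0.74 ± 0.11 in Gαs KO cells (SE, adjusted p = 6.8e-05), a call kept with each library left out in turn. CITED2 was higher in Gαs KO cells by 0.49 ± 0.08 (SE, adjusted p = 0.00012) and gave -0.18 ± 0.08 in β-arr1/2 KO cells (adjusted p = 0.085), which passed without wildtype basal replicate 2 (-0.23, adjusted p = 0.026).

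CREB1 was higher than in wildtype cells in both KO lines, by 0.49 ± 0.14 in β-arr1/2 KO (SE, adjusted p = 0.014) and 0.43 ± 0.14 in Gαs KO cells (SE, adjusted p = 0.028). Without wildtype basal replicate 1 these were 0.29 (adjusted p = 0.0049) and 0.22 (adjusted p = 0.024). The Gαs KO call of CREB1 was lost without Gαs KO basal replicate 1 (0.44, adjusted p = 0.06), 2 (0.45, 0.056) or 3 (0.39, 0.095), and GC and length offsets ended both calls (0.23, adjusted p = 0.055, and 0.18, adjusted p = 0.12), as did length-scaled counts (0.30, 0.32, and 0.41, 0.17). ATF1 was lower in β-arr1/2 KO cells by -0.44 ± 0.13 (SE, adjusted p = 0.016), a call lost without wildtype basal replicate 2 (-0.28, adjusted p = 0.086) or β-arr1/2 KO basal replicate 1 (-0.40, adjusted p = 0.066). It was also lost with only protein-coding transcripts (-0.39, adjusted p = 0.09). CREBBP was higher there by 0.34 ± 0.10 (SE, adjusted p = 0.012). With only the 2 basal groups fitted, the β-arr1/2 KO calls of CREB1, ATF1 and CREBBP were lost (adjusted p = 0.19, 0.18 and 0.16). Without wildtype basal replicate 1 the number of members called in Gαs KO cells rose from 3 to 7, with ATF1 (-0.38), CRTC1 (0.38), CRTC2 (0.25) and CRTC3 (0.34) added. Over all genes, the number called there rose from 4863 to 7241.

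**Figure D5:**
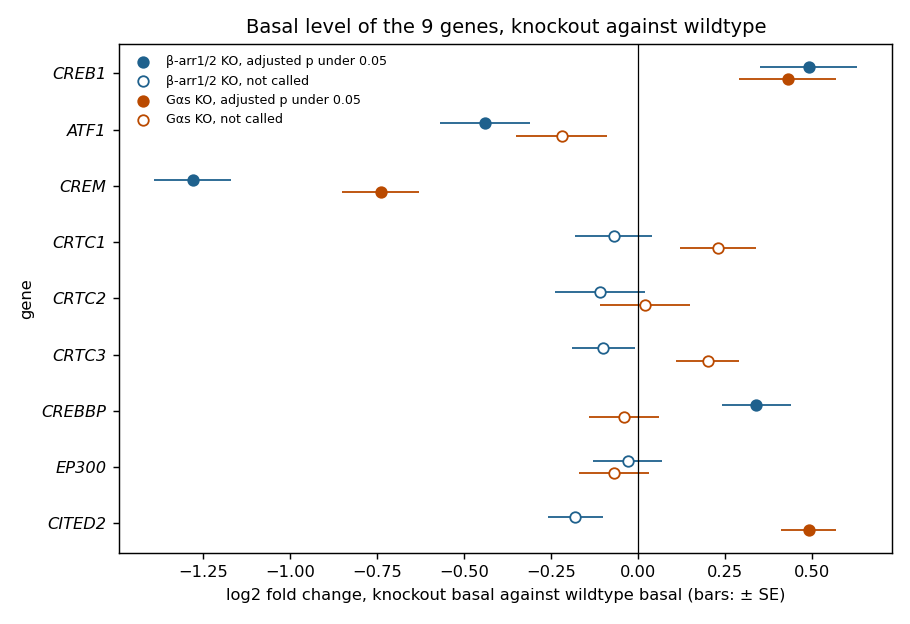
Basal differences of the 9 genes, as log2 fold change of a KO line against wildtype cells (x axis) per gene (y axis), with bars for the standard error. Filled points passed an adjusted p of 0.05. CREM lies at -1.28 in β-arr1/2 KO and -0.74 in Gαs KO cells, farther from 0 than any other member.

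The ICER start site was also lower at basal in both KO lines. Its log2 difference from wildtype cells was -2.31 ± 0.39 in β-arr1/2 KO (SE, adjusted p = 0.00099) and -1.65 ± 0.38 in Gαs KO cells (SE, adjusted p = 0.0094), a call kept with each library left out in turn. Among β-arr1/2 KO libraries 3 of the 4 CREM start sites were lower, and 1 of 4 in Gαs KO cells. Of all sites, 13.4% and 12.5% were called in either direction. The 4 sites belong to 1 gene that was itself lower, so they are not separate draws from all sites. The upstream promoter was the site not called in either, at -0.49 ± 0.22 (SE, adjusted p = 0.19) and -0.04 ± 0.22 (SE, adjusted p = 0.95). The second start site (chr10:35137836) gave -1.91 ± 0.49 (SE, adjusted p = 0.017) and -1.32 ± 0.48 (SE, adjusted p = 0.094), and the second internal site -2.50 ± 0.64 (SE, adjusted p = 0.016) and -1.46 ± 0.61 (SE, adjusted p = 0.15). Without β-arr1/2 KO basal replicate 1 both of these β-arr1/2 KO calls were lost (-1.62, adjusted p = 0.081, and -2.29, 0.078), and without replicate 2 that of the second start site was (-1.86, 0.067).

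Among CREM transcripts 3 were called lower in β-arr1/2 KO cells and 1 in Gαs KO cells. Of all transcripts, 4.72% and 4.48% were called in either direction, and the CREM transcripts again share 1 gene. CREM-207 was lower in both, by -2.01 ± 0.37 (SE, adjusted p = 0.0054) and -1.71 ± 0.37 (SE, adjusted p = 0.015), and the Gαs KO call was lost without wildtype basal replicate 3 (-1.38, adjusted p = 0.066) or Gαs KO basal replicate 1, 2 or 3 (-1.76, -1.65 and -1.70, adjusted p = 0.062, 0.08 and 0.074). The others lower in β-arr1/2 KO cells were CREM-237 and CREM-201 (-1.68 ± 0.42 for CREM-201, SE, adjusted p = 0.032). CREM-201 comes from the second start site and codes for the phosphorylation site. Both calls were lost without any 1 of the 3 β-arr1/2 KO basal libraries and without wildtype basal replicate 3 (adjusted p = 0.052 to 0.14). The basal ICER share was 43.3% in wildtype cells and 20.9% and 23.9% in β-arr1/2 KO and Gαs KO cells, without overlap (exact permutation p = 0.1 for each, n = 3).

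The order of the 6 groups differed between members. CREM ran from wildtype isoproterenol (mean 1186) and wildtype basal (875) down to Gαs KO isoproterenol (536), β-arr1/2 KO isoproterenol (532) and Gαs KO basal (523), which overlapped each other, and β-arr1/2 KO basal (361). CITED2 ran from β-arr1/2 KO isoproterenol (2927) and wildtype isoproterenol (2648) through Gαs KO isoproterenol (2306) and Gαs KO basal (2291), which overlapped, to wildtype basal (1631) and β-arr1/2 KO basal (1444). The Gαs KO groups thus lay between the basal and stimulated levels of the other lines for CITED2 and with the stimulated β-arr1/2 KO group for CREM.

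Levels of different genes were compared per length, as TPM, a read share per transcript length, from annotated transcript lengths. At wildtype basal CREBBP had 82.0 ± 5.81 TPM, CREM 74.8 ± 4.36, CITED2 70.5 ± 5.02, ATF1 62.1 ± 5.06, CRTC3 49.9 ± 5.76, CRTC1 38.5 ± 4.82, CRTC2 37.1 ± 5.32, EP300 36.5 ± 3.46 and CREB1 18.9 ± 1.16 (mean TPM ± SD, n = 3). Neighbours in this order overlapped between libraries, except ATF1 above CRTC3, CRTC3 above CRTC1 and EP300 above CREB1. With isoproterenol CITED2 became the highest of the 9 in wildtype cells at 115 ± 8.87 TPM and in β-arr1/2 KO cells at 133 ± 6.63 TPM. CREB1 was the lowest in all 6 groups, with means of 18.9 to 26.9 TPM, and CREM held the second place at wildtype basal and the eighth at β-arr1/2 KO basal (34.4 ± 6.47 TPM).

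Other genes of the pathway were read from 3 lists, chosen with earlier results of these data known. Over all genes, 0.412% rose in wildtype and 0.953% in β-arr1/2 KO cells. Of 28 tested regulators of CREB (kinases, phosphatases and 14-3-3 proteins), 1 rose in wildtype and 1 in β-arr1/2 KO cells, with 0 lower and a median log2 fold change of 0.07 and 0.06. In both lines it was SIK1, a salt-inducible kinase that retains CRTC proteins in the cytoplasm and is itself a CREB target. SIK1 went from 226 ± 41.7 to 1236 ± 49.3 counts in wildtype cells (mean ± SD, log2 fold change 2.45 ± 0.17, SE, adjusted p = 2.2e-07) and from 279 ± 44.5 to 2565 ± 76.2 in β-arr1/2 KO cells (3.20 ± 0.17, SE, adjusted p = 3.5e-09). In the β-arr1/2 KO response 8 regulators were called higher and 1 lower without wildtype basal replicate 1, a setting added after seeing the data. The number of all genes called in this response then rose from 175 to 1849. At basal 2 regulators were higher and 4 lower in β-arr1/2 KO cells (33.5% of all genes called), and 3 higher and 1 lower in Gαs KO cells (31.3% of all genes). Without wildtype basal replicate 1 these were 6 and 6, and 5 and 7. Over all genes, the numbers called then rose from 5210 to 7378 and from 4863 to 7241.

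Of 25 relatives (other bZIP factors and coactivators), 1 rose in wildtype and 2 in β-arr1/2 KO cells (0.412% and 0.953% of all genes), with medians of 0.00 and 0.03. ATF3, a stress-induced bZIP repressor, rose from 1843 ± 153 to 3405 ± 23.6 counts in wildtype (mean ± SD, log2 fold change 0.89 ± 0.08, SE, adjusted p = 7.7e-06) and from 1396 ± 122 to 5097 ± 313 in β-arr1/2 KO cells (1.87 ± 0.08, SE, adjusted p = 3.8e-10). ATF4, the factor of the integrated stress response, rose in β-arr1/2 KO cells (0.65 ± 0.12, SE, adjusted p = 0.0071). Its response there exceeded the wildtype one by 1.16 ± 0.17 (SE, adjusted p = 0.005), the wildtype value of ATF4 itself being -0.51 (adjusted p = 0.0902), which is not called.

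Of 28 tested CREB targets, a list that shares CREM, SIK1 and ATF3 with the lists above, 11 rose in wildtype and 15 in β-arr1/2 KO cells and 0 fell, with median log2 fold changes of 0.66 and 1.16. In Gαs KO cells 0 were called by edgeR, with 2 at an unadjusted p under 0.05 and 1 called by DESeq2, and the median was 0.05. The response was lower in Gαs KO than in wildtype cells for 11 of them and higher in β-arr1/2 KO cells for 7. Over all genes, 0.161% and 0.167% were called in these 2 differences. The 4 with the largest changes in wildtype cells were the nuclear receptor NR4A2 (3.52), the AP-1 subunits FOS (3.25) and JUNB (2.78) and the gluconeogenic enzyme PCK1 (3.23). In β-arr1/2 KO cells they were PCK1 (4.92), NR4A2 (4.68), NR4A3 (4.37) and FOS (3.56), with the MAP kinase phosphatase DUSP1 level with FOS (3.56). The CREM and CITED2 changes were thus small beside those of the targets that moved most. At basal 18 of the 28 targets were lower and 1 higher in Gαs KO cells, and 10 lower and 8 higher in β-arr1/2 KO cells, with medians of -0.77 and -0.04. Of all genes, 17.1% were lower and 14.2% higher in Gαs KO cells, and 17.9% lower and 15.7% higher in β-arr1/2 KO cells.

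The genes whose log2 CPM (library-scaled counts) tracked CREM most closely over the 18 libraries were EPN2, TMEM100 and KCNJ8 (Pearson's r of 0.967, 0.964 and 0.950). For CITED2 they were OTUD1 and CYR61 (0.931 and 0.919). These are descriptions over libraries that fall into 6 groups of 3 and share them, so the r values reflect group differences as well as differences between libraries.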

How the data were processed

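RNA-Seq was made from 18 libraries, 3 in each of 6 groups taken from the sample labels. The authors deposited estimated counts per transcript (expected counts from Salmon 1.7.0, GRCh38), and DESeq2 is also named in the submitters' processing notes. The index, annotation release and strand setting are not given in the sources used here. Salmon divides reads among overlapping transcripts, so a transcript's count is an estimate. Of the columns of the count table, 0 were left unused. Counts were summed per gene, and per group of start sites within 500 bases, through GENCODE release 29, which matched 161838 of 184844 transcripts and 92.9 to 93.8% of counts, and were rounded to whole numbers. Library totals were 17908597 to 25019834.

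Genes were tested with edgeR 4.0.16 (R 4.3.3): TMM scaling, the default expression filter and quasi-likelihood tests on all 18 libraries with 1 term per group and Benjamini-Hochberg adjustment, called at an adjusted p under 0.05. SEs were the log2 fold change over the root of F. Start sites and transcripts were fitted alike. DESeq2 1.42.0, other scaling, filters, thresholds, counting, GC and length offsets, a replicate block and leaving out each library were alternatives, and leaving wildtype basal replicate 1 out of comparisons it is not in was added after seeing the data. Single values were compared by exact permutation tests (scipy 1.17.1). In data simulated for the wildtype response over 15317 genes, 28% of genes changed 1.5-fold and 65% of those changed 2-fold were recovered, with 1 unchanged gene called. Same-numbered libraries did not deviate together (correlations of -0.0994 to 0.0769), so no pairing was used.

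All 9 genes and each CREM transcript or start site with at least 10 counts in all libraries of a group were to be described. From the 3 pathway lists, up to 4 called genes with the largest changes per response were named, and for each called member the 3 genes of highest correlation. Results that need items withheld from the text are not reported here. Members and lists were chosen with earlier results of these data known.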

Additional observations from a re-analysis of the deposited data

Results flagged for a closer look

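CITED2 responded differently in Gαs KO and wildtype cells. The log2 fold change in Gαs KO cells minus that in wildtype cells was -0.69 (adjusted p = 0.0069, edgeR), and it was picked out because the test of the difference itself passed. It stayed called in all 12 leave-outs of 1 library, and was not called when only the 2 lines were fitted (adjusted p = 0.085).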

How the results depend on the processing

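Of the alternative values of single members, 1152 kept their side of the threshold, 17 gained a call and 28 lost one. Of the 1152, 1059 kept their sign, 63 had the opposite sign and 30 were at 0.00 in either fit, and 0 of the 63 were called. Members called in the wildtype response were 2 by DESeq2 and 0 with only the groups compared. In the β-arr1/2 KO response they were 1 at an adjusted p under 0.01, with protein-coding transcripts and with length-scaled counts, and 1 to 3 without single libraries. For Gαs KO minus wildtype they were 0 with only the groups compared. At basal they were 1 at 0.01 and 1 with only the groups compared in β-arr1/2 KO cells, and 5 with GC and length offsets, with or without the replicate block, and 2 to 7 without single libraries in Gαs KO cells.

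Genes called were 186, 291, 9, 104 and 68 by DESeq2 in the wildtype, β-arr1/2 KO and Gαs KO responses and the β-arr1/2 KO and Gαs KO differences from wildtype. With only the groups compared they were 13 and 1161 in the first 2 responses, 9 and 15 for the differences, and 1502 and 1587 at basal. GC and length offsets gave 224 and 373 in the first 2 responses and 125 and 57 for the differences. With the block these were 219, 369, 118 and 52. At 0.01 there were 51 in the wildtype response, 110 in the β-arr1/2 KO response and 13 for the β-arr1/2 KO difference. The basal numbers at 0.01 were 3329 in β-arr1/2 KO and 3050 in Gαs KO cells. Without single libraries the ranges were 56 to 176 and 113 to 1849 in the first 2 responses. For the differences they were 15 to 1301 and 19 to 65. The highest value of each range came without wildtype basal replicate 1.

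CREM transcripts called were 2 by DESeq2 in the β-arr1/2 KO response and 1 without a filter at basal, and 0 to 1, 1 to 3 and 0 to 1 without single libraries. CREM start sites called were 2 by DESeq2 in that response and 3 at Gαs KO basal, and 0 to 1 and 1 to 3 without single libraries. The ICER start site was called there by DESeq2 at 1.45 and ranged from 1.12 to 1.78. Per annotated base the ICER share was 35.6% and 51.5% in wildtype cells and 20.0% at Gαs KO basal. The cause of these changes was not tested.

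The replicate block alone, for numbers that do not pair the libraries, gave 73, 171, 0, 27 and 26 genes in the responses and differences and 5136 and 4817 at basal, and moved no count of members. Depth limits CREM transcripts of few counts, such as CREM-237 with 0 counts at β-arr1/2 KO basal.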
